A study of Mus musculus with 9 samples.

Results

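Amino acid transporters of the Slc1a, Slc3a, Slc6a, Slc7a, Slc36a, Slc38a and Slc43a families were followed in mouse osteoblasts, the bone-forming cells, after 4 h with parathyroid hormone peptides. A gene was taken as a member if a transcript cluster (a group of probes for one transcript region) carried its symbol alone, and its brightest cluster over the 9 arrays was read. This gave 61 genes of the 22180 genes on the arrays with such a cluster. Slc6a9 shares its cluster with another symbol and was not analysed here. No transporter passed the test in any comparison. For hPTH(1-34) against vehicle, 4 genes had the smallest p values among the clearly detected members. They were the amino acid exchanger gene Slc7a5, its partner Slc3a2, the glutamine carrier gene Slc38a1 and the arginine carrier gene Slc7a1. Their signal was higher on all 3 hPTH(1-34) arrays than on the vehicle arrays, by 0.07 to 0.24 in the closest pair. That of Slc1a6, Slc38a2, Slc36a1 and Slc43a1 was lower on all 3, but by only 0.01 to 0.04 in the closest pair. Together these were 8 of 27 members with a mean log2 over 4 (29.6%), against 18.0% of all such clusters. That split was made with the values known. Over all 61 members 14.8% were separate, against 10.7% of all clusters. An unadjusted p under 0.05 in limma was found for 18.5% of the 27, against 16.4% of such clusters. In a comparison chosen after the data were seen, 5 members varied between arrays with the level of macrophage and osteoclast markers. Among them was the cystine carrier gene Slc7a11, while Slc43a2 did not pass by rank, and the p values make no allowance for that choice.

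The cells were primary calvarial osteoblasts of C57BL/6J mice aged 7 to 10 days, used at passage 2. Differentiation was started on day 3, and on day 10 all cultures were kept without serum for 24 h. One group of 3 arrays received 100 nM hPTH(1-34), the human agonist fragment that raises cAMP through the parathyroid hormone receptor. Another received 1 µM bPTH(7-34), the bovine (D-Trp12,Tyr34) amide, known as an antagonist of that receptor, and the third group of 3 received vehicle. The peptides thus differed in dose as well as in sequence, so a difference between them is one between the treatments as given. Per the series text each replicate was a separate preparation, but not whether one preparation was split among the treatments, and the number of animals is not stated. A culture from skull bones can hold cells other than osteoblasts.

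Cells take up amino acids through carriers that exchange them, that are driven by sodium or protons, or that let them pass down their gradient. The Slc7a light chains reach the cell surface only when joined to a heavy chain of the Slc3a family, and the pair of Slc7a5 and Slc3a2 brings in leucine and other large neutral amino acids in exchange for glutamine. Amino acids that enter in this way feed protein synthesis, and leucine and arginine activate the growth kinase complex mTORC1. In osteoblasts, which secrete large amounts of collagen, uptake of glutamine, proline and neutral amino acids is known to matter for matrix production. When amino acids run short, the transcription factor ATF4 turns on many of these carriers, and ATF4 is itself needed for osteoblast function.

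Signal is given as the deposited log2 expression value of each array, so a difference of 1 is a 2-fold change. Array medians lay between 1.67 and 1.76, and any pair of arrays correlated at 0.972 to 0.985 over the 41345 clusters. As a limit of background served 1.69, under which 95% of 1105 olfactory receptor genes had their vehicle mean. Of 10 measured osteoblast markers 9 lay above it, with Col1a1 at 12.29, 12.27 and 12.29 in the hPTH(1-34), bPTH(7-34) and vehicle means. Bglap, the osteocalcin gene, did not (1.48, 1.44 and 1.25), and Runx2 and Spp1 had no cluster of their own. Markers of endothelium averaged 1.75 to 1.93 per array and those of neurons and glia 1.78 to 2.05, both near the limit. Those of skeletal muscle averaged 2.05 to 2.57, with 5 of 6 above the limit. Chondrocyte markers averaged 3.73 to 4.25, and all 5 lay above it. The part of such cells in the transporter values was not tested. Macrophage and adipocyte markers are given further below.

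Of the 61 transporter genes, 40 had a group mean above the background limit and 21 did not. The gap was wide, since 27 genes had a mean over 4 and the brightest of the other 34, Slc6a17, a neutral amino acid carrier of synaptic vesicles, had 2.23. The split at 4 was chosen after the values were seen. All 3 Slc43a genes, 3 of 4 Slc36a genes, 7 of 11 Slc38a genes, 7 of 15 Slc7a genes, 4 of 7 Slc1a genes and 1 of 2 Slc3a genes were in the brighter set. Of 19 measured Slc6a genes it held 2, the taurine carrier Slc6a6 and the creatine carrier Slc6a8. The monoamine carriers Slc6a2, Slc6a3 and Slc6a4 and the intestinal and renal carriers Slc6a18 and Slc6a19 all averaged 2.19 or less. A second, dimmer cluster of Slc1a5, Slc36a4, Slc38a10 and Slc7a11 gave log2 changes (± SE) of -0.41 ± 0.23, 0.23 ± 0.13, -0.06 ± 0.09 and 0.30 ± 0.14 for hPTH(1-34) against vehicle, none of which passed, and that of Slc7a11 lay under the limit. Different genes are read by different probes, so this split sorts genes by probe brightness and is no comparison of RNA amounts between them.

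In limma, fitted to all 9 arrays and adjusted by the Benjamini-Hochberg method over 23521 clusters, 0 of 61 members differed between hPTH(1-34) and vehicle. Among all clusters 106, or 0.451%, were called. At an unadjusted p under 0.05 there were 7 members, which is 11.5% against 9.31% of all clusters. Of these 6 had higher signal with hPTH(1-34), a direction held by 5.53% of all clusters, and 1 had lower signal, against 3.78%. Among the 27 brighter members 5 had such a p (18.5%), against 16.4% of all clusters with a mean over 4. The changes ran from -0.61 to 0.76 with a median of 0.02, 31 were positive and 30 negative, and the median over all clusters was 0.00. The hPTH(1-34) and vehicle arrays did not overlap for 9 members (14.8%), against 10.7% of all clusters. Within the brighter set this held for 8 of 27 (29.6%), against 18.0%, and these were Slc7a5, Slc3a2, Slc38a1 and Slc7a1 on the higher side and Slc1a6, Slc38a2, Slc36a1 and Slc43a1 on the lower. The ninth was Slc7a14, a dim member of the cationic carrier family. With 1 array left out at a time, 0 members passed in every fit but the one without hPTH(1-34) array 1. In that fit 3 members passed, while 259 clusters rather than 106 were called in all. They were Slc7a5 (log2 change 1.01, limma adjusted p = 0.0173), Slc6a2 (1.07, adjusted p = 0.00891) and Slc6a17 (1.02, adjusted p = 0.0488).

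**Figure D1:**
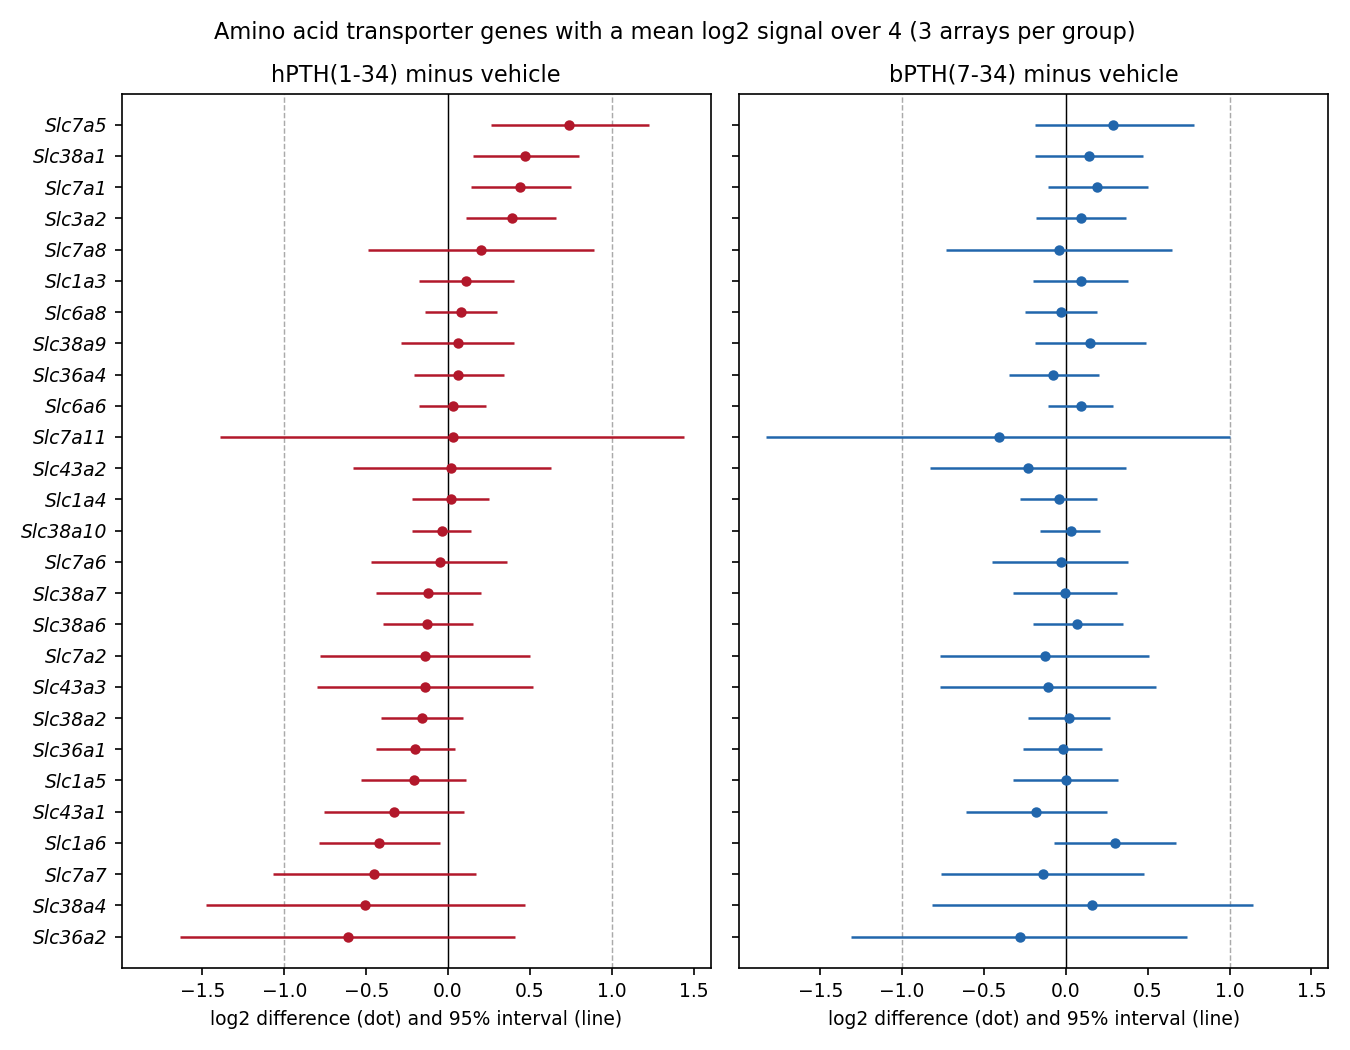
Log2 differences from vehicle (dots) with 95% intervals (lines) for the 27 transporter genes with a mean signal over 4, hPTH(1-34) on the left and bPTH(7-34) on the right, in the order of the hPTH(1-34) difference. The dashed lines mark a 2-fold change; 22 of 27 intervals for hPTH(1-34) and 24 of 27 for bPTH(7-34) lie between them, and Slc7a11 has the widest.

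The heavy chain gene Slc3a2 encodes CD98hc, which carries the Slc7a light chains to the cell surface. Its signal was 7.95, 7.57 and 7.68 on the hPTH(1-34) arrays, 7.54, 7.45 and 7.33 on the bPTH(7-34) arrays and 7.49, 7.22 and 7.33 on the vehicle arrays. All hPTH(1-34) values thus lay above all values of the other 2 groups. The log2 change was 0.39 ± 0.12 (SE, n = 3 per group, limma, unadjusted p = 0.0117, adjusted p = 0.332), a 1.31-fold difference with a 95% interval from 0.11 to 0.66. Against bPTH(7-34) the difference was 0.29 ± 0.12 (adjusted p = 0.495). The other heavy chain, Slc3a1 of the cystine carrier of kidney and intestine, stayed under the background limit with group means of 1.38, 1.45 and 1.34.

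Because its groups did not overlap, the promoter of Slc3a2 is shown, 250 bases before to 50 after the start site, from RefSeq on GRCm38.p6 at chr19:8713848-8714147, minus strand. It holds none of the 3 motifs searched, so no letters are in capitals.
Slc3a2: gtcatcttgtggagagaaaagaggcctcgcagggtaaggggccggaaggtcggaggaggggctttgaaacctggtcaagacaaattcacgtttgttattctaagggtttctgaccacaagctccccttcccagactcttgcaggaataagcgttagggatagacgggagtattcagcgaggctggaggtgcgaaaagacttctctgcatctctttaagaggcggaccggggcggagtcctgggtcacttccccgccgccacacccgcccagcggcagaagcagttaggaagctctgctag

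Slc7a5 encodes LAT1, the light chain that joins Slc3a2 to import leucine. It measured 6.48, 7.33 and 7.26 with hPTH(1-34), 6.48, 6.45 and 6.79 with bPTH(7-34) and 6.41, 6.34 and 6.09 with vehicle. Arrays 2 and 3 of hPTH(1-34) stood apart, while array 1 lay 0.07 above the highest vehicle array and level with bPTH(7-34) array 1. The change was 0.74 ± 0.22 for hPTH(1-34) against vehicle (1.67-fold, interval 0.26 to 1.23, unadjusted p = 0.00722, adjusted p = 0.276). This was the smallest adjusted p of any member in that comparison. Leaving out 1 array at a time gave changes from 0.59 to 1.01. For bPTH(7-34) against vehicle it was 0.29 ± 0.22 (adjusted p = 0.999), although those groups did not overlap either, and 3 members (4.92%) were separate in this way against 5.29% of all clusters. Slc7a5, on chromosome 8, has no promoter entry in the table used.

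**Figure D2:**
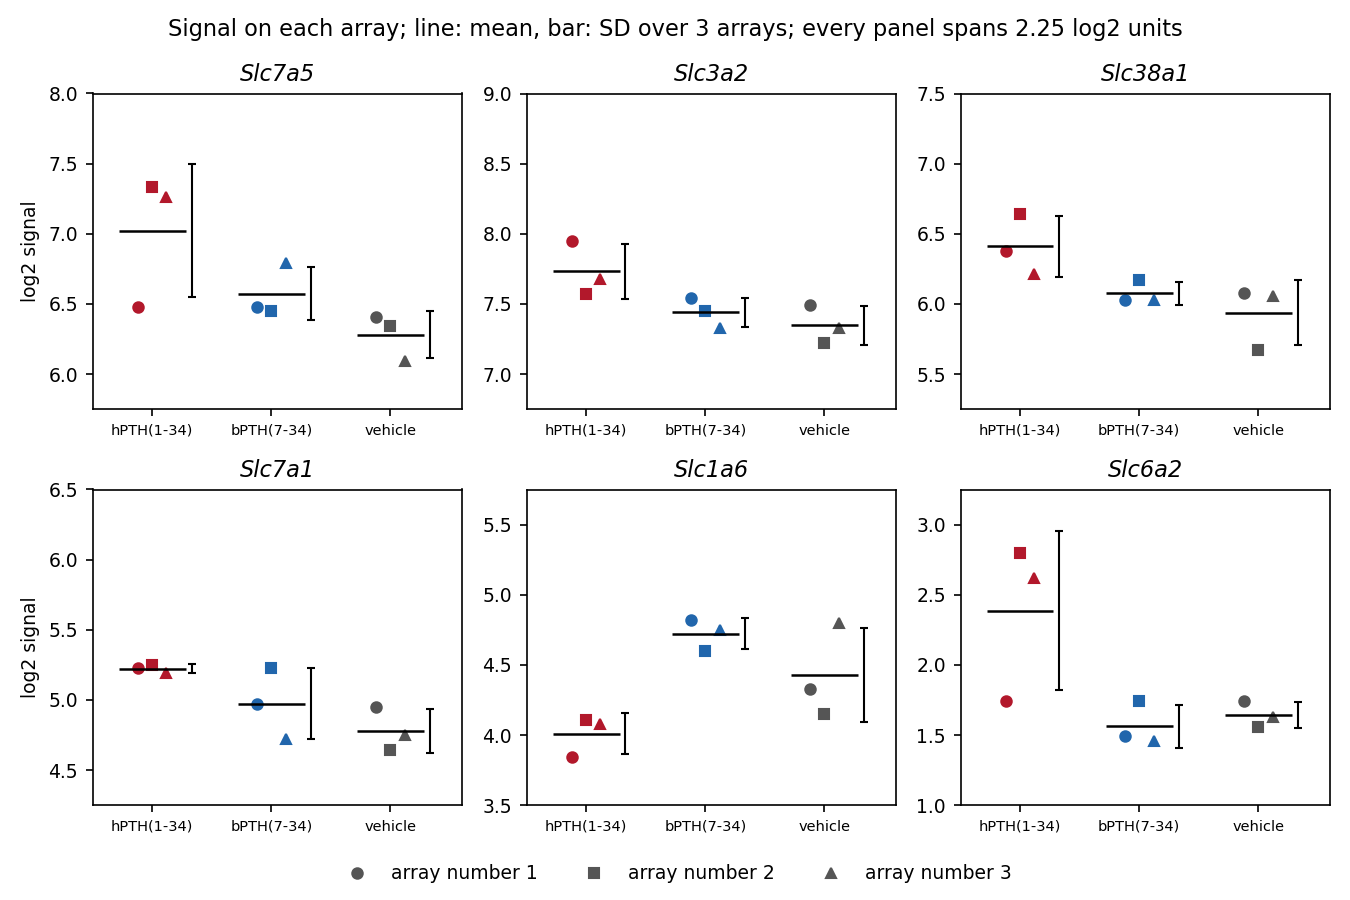
Signal (log2) of 6 transporter genes on each array, with the mean (line) and SD (bar) of 3 arrays per group and the array number by symbol. Slc3a2, Slc38a1 and Slc7a1 lie above all vehicle arrays on every hPTH(1-34) array, while hPTH(1-34) array 1 lies 0.07 above the highest vehicle array for Slc7a5 and level with it for Slc6a2, with arrays 2 and 3 further up.

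The other light chains gave no difference that passed. Slc7a8, or LAT2, which exchanges small and large neutral amino acids, differed by 0.20 ± 0.31 between hPTH(1-34) and vehicle. Slc7a6, or y+LAT2, which exports arginine in exchange for glutamine, differed by -0.05 ± 0.18, and the related Slc7a7 by -0.45 ± 0.28. Slc7a10, a carrier of glycine and small neutral amino acids, averaged 2.21, 2.05 and 2.23 in the hPTH(1-34), bPTH(7-34) and vehicle groups. Slc7a9, Slc7a12, Slc7a13 and Slc7a15 stayed under the background limit.

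Slc7a11 encodes xCT, which brings in cystine for glutathione in exchange for glutamate. Its values were 6.82, 5.55 and 4.27 with hPTH(1-34), 5.65, 5.54 and 4.13 with bPTH(7-34) and 6.16, 5.01 and 5.39 with vehicle. The spread within each group exceeded any distance between the groups, whose means were 5.55, 5.11 and 5.52. The change was 0.03 ± 0.63 for hPTH(1-34) against vehicle, with an interval from -1.39 to 1.44, so a difference of 2-fold in either direction was not detectable for this gene.

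Its promoter is shown because it holds 2 copies of the C/EBP-ATF composite, the element that ATF4 binds. Among the brighter members, 1 promoter entry of Slc7a7 also held 2 copies. The sequence is at chr3:50443564-50443863, minus strand (RefSeq, GRCm38.p6), and the capitals mark TGATGNAAN on either strand, beginning 66 and 48 bases before the start site.
Slc7a11: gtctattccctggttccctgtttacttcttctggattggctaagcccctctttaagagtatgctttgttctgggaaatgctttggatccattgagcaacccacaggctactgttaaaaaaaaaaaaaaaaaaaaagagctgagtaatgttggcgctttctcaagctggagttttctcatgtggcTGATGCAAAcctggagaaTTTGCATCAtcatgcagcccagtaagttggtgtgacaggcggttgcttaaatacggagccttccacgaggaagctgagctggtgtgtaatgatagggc

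Among the cationic carriers Slc7a1, or CAT1, is the main arginine and lysine carrier of most cells. Its signal was 5.23, 5.25 and 5.19 with hPTH(1-34), 4.97, 5.23 and 4.72 with bPTH(7-34) and 4.95, 4.64 and 4.75 with vehicle. The hPTH(1-34) arrays agreed within 0.06 and lay above all vehicle arrays, while bPTH(7-34) spanned both. The change was 0.44 ± 0.14 for hPTH(1-34) against vehicle (1.36-fold, interval 0.14 to 0.75, unadjusted p = 0.00958, adjusted p = 0.311) and 0.19 ± 0.14 for bPTH(7-34) against vehicle. Slc7a2, or CAT2, which supplies arginine to nitric oxide synthase and arginase in macrophages, differed by -0.14 ± 0.28. Slc7a3 and Slc7a4 were under the limit. Slc7a14, a lysosomal member, had 1.66, 1.69 and 1.71 with hPTH(1-34), 1.62, 1.66 and 1.97 with bPTH(7-34) and 1.35, 1.47 and 1.52 with vehicle, a difference of 0.24 ± 0.11 for hPTH(1-34) and of 0.30 ± 0.11 for bPTH(7-34) at a level around the limit.

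One of 2 promoter entries of Slc7a1 carries the 5-base core of the cAMP response element, the site of the transcription factor CREB, and is shown for that reason. It lies at chr5:148399855-148400154, minus strand (RefSeq, GRCm38.p6), and the capitals mark TGACG or its complement CGTCA, beginning 184 bases before the start site and at base 15 after it.
Slc7a1: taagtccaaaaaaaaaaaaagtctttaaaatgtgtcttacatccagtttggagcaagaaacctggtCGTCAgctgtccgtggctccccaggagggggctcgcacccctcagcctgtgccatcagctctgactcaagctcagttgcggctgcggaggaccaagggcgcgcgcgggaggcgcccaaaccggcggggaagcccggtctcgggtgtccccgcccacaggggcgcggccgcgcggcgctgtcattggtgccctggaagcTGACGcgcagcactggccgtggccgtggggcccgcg

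Of the sodium-coupled neutral carriers, Slc38a1 (SNAT1) takes up glutamine. It had 6.38, 6.64 and 6.21 with hPTH(1-34), 6.03, 6.17 and 6.03 with bPTH(7-34) and 6.08, 5.67 and 6.06 with vehicle. No hPTH(1-34) array fell within the range of another group, although array 3 cleared bPTH(7-34) array 2 by only 0.04. The change was 0.47 ± 0.14 against vehicle (1.39-fold, interval 0.15 to 0.80, unadjusted p = 0.00929, adjusted p = 0.304) and 0.33 ± 0.14 against bPTH(7-34) (adjusted p = 0.512). Slc38a2 (SNAT2), the carrier that many cells raise when starved of amino acids, had 7.64, 7.78 and 7.85 with hPTH(1-34), 7.88, 7.80 and 8.15 with bPTH(7-34) and 7.86, 7.97 and 7.93 with vehicle. The hPTH(1-34) arrays lay just under the vehicle arrays, at -0.16 ± 0.11 (adjusted p = 0.709). Slc38a9, the lysosomal arginine sensor of mTORC1, differed by 0.06 ± 0.15 and Slc38a7, which moves glutamine out of lysosomes, by -0.12 ± 0.14. Slc38a10 had a narrow spread, from 7.10 to 7.30 over all 9 arrays, with an interval from -0.22 to 0.14. Slc38a4, a carrier of neutral and cationic amino acids, gave -0.51 ± 0.43, a wide error shared by arrays of one number. Between hPTH(1-34) and vehicle arrays of the same number it differed by -0.46, -0.64 and -0.42. Slc38a3, Slc38a5, Slc38a8 and Slc38a11 were under the limit.

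The only member promoter with the full cAMP response element TGACGTCA belongs to Slc38a6, whose signal differed by -0.13 ± 0.12 between hPTH(1-34) and vehicle (interval -0.40 to 0.15, adjusted p = 0.803). It is at chr12:73286598-73286897, plus strand (RefSeq, GRCm38.p6). The capitals mark the full element, beginning 121 bases before the start site, and a further core CGTCA 201 bases before it.
Slc38a6: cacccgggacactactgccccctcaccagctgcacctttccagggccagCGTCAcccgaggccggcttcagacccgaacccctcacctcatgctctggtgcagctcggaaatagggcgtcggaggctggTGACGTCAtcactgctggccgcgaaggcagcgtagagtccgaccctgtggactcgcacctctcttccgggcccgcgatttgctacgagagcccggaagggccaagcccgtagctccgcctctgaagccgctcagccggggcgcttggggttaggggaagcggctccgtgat

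The 3 motifs were searched on both strands of RefSeq promoters of 300 bases, with entries for 44 of 61 members (63 entries). TGACGTCA was found in 1 member entry (1.59%), against 1.79% of all 32851 promoters. The core TGACG, which overlaps it, was found in 16 entries of 15 genes (25.4%), against 20.8% of all. TGATGNAAN was found in 5 entries (7.94%), against 3.95% of all, and these belong to Slc1a4, Slc6a21, Slc7a7 and Slc7a11. The Slc7a7 entries with this motif overlap and share a site, TGATGCAAC, as the Slc7a6 entries share a TGACG. The counts are therefore of entries and not of separate sites. A match of letters is a description, and no binding was measured here.

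Among the acidic and neutral carriers of the Slc1a family, Slc1a6 (EAAT4), a glutamate carrier known from cerebellar Purkinje cells, had the smallest p of any member between the peptides. Its signal was 3.84, 4.11 and 4.08 with hPTH(1-34), 4.82, 4.60 and 4.75 with bPTH(7-34) and 4.33, 4.15 and 4.80 with vehicle. The hPTH(1-34) arrays lay below the arrays of both other groups, by 0.04 in the closest pair. The log2 difference was -0.71 ± 0.16 against bPTH(7-34) (unadjusted p = 0.00171, adjusted p = 0.132) and -0.42 ± 0.16 against vehicle (unadjusted p = 0.0307, adjusted p = 0.460). Slc1a3 (EAAT1), a glutamate and aspartate carrier, had 6.42 ± 0.24, 6.40 ± 0.08 and 6.31 ± 0.12 (SD, n = 3) in the hPTH(1-34), bPTH(7-34) and vehicle groups. Slc1a5 (ASCT2), which exchanges glutamine for other neutral amino acids, had a change of -0.21 ± 0.14 for hPTH(1-34), and Slc1a4 (ASCT1), its relative for serine and alanine, of 0.02 ± 0.10.

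Proton-coupled carriers of the Slc36a family include Slc36a1 (PAT1), found on lysosomes. It had 4.98, 4.69 and 4.96 with hPTH(1-34), 5.01, 5.18 and 4.97 with bPTH(7-34) and 5.12, 5.01 and 5.10 with vehicle, and the hPTH(1-34) arrays lay below the vehicle arrays at -0.20 ± 0.11 (adjusted p = 0.630). Slc36a4 (PAT4) differed by 0.06 ± 0.12 and Slc36a2 (PAT2) by -0.61 ± 0.45. In the facilitative family Slc43a1 (LAT3), which carries branched-chain amino acids, had 4.57, 4.90 and 4.68 with hPTH(1-34), 4.84, 4.48 and 5.30 with bPTH(7-34) and 5.10, 4.91 and 5.14 with vehicle. Its groups were separate by 0.01, with a change of -0.33 ± 0.19 for hPTH(1-34) against vehicle (adjusted p = 0.648). Slc43a2 (LAT4) differed by 0.02 ± 0.27, and Slc43a3, which carries purine bases rather than amino acids, by -0.14 ± 0.29.

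In the Slc6a family the taurine carrier gene Slc6a6 ranged from 7.97 to 8.23 over all arrays, and its interval for hPTH(1-34) against vehicle, from -0.18 to 0.23, left no room for a 2-fold change. The same held for the creatine carrier gene Slc6a8 (0.08 ± 0.10, interval -0.14 to 0.30). Slc6a17 had 2.15, 3.16 and 2.66 with hPTH(1-34), 2.12, 2.05 and 2.24 with bPTH(7-34) and 1.86, 1.67 and 2.15 with vehicle (0.76 ± 0.23, unadjusted p = 0.00835, adjusted p = 0.292). For Slc6a2, the noradrenaline carrier gene, the values were 1.74, 2.80 and 2.62 with hPTH(1-34), 1.49, 1.74 and 1.46 with bPTH(7-34) and 1.74, 1.56 and 1.63 with vehicle. Both genes sat near the background limit in the other groups, and hPTH(1-34) array 1 overlapped them. The change of Slc6a2 was 0.74 ± 0.24 against vehicle (adjusted p = 0.337) and 0.82 ± 0.24 against bPTH(7-34) (unadjusted p = 0.00692, adjusted p = 0.256). Slc6a3, the dopamine carrier gene, lay lower with hPTH(1-34) than with bPTH(7-34) by -0.25 ± 0.10 (unadjusted p = 0.0417, adjusted p = 0.497). Slc6a4, the serotonin carrier gene, had 2.38, 1.98 and 1.98 with hPTH(1-34), 1.75, 2.12 and 2.11 with bPTH(7-34) and 2.95, 2.10 and 2.35 with vehicle, and the groups overlapped (-0.35 ± 0.22 for hPTH(1-34) against vehicle, adjusted p = 0.676). Slc6a19 (0.30 ± 0.17, adjusted p = 0.638) and the GABA carrier gene Slc6a11 (-0.10 ± 0.15, adjusted p = 0.885) were under the background limit in all groups.

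Between bPTH(7-34) and vehicle limma called 0 of 61 members and 0 of all clusters (0.00%), and the smallest adjusted p of a member was 0.999. At an unadjusted p under 0.05 there were 4 members (6.56%), against 3.32% of all clusters. They were Slc1a7, a retinal glutamate carrier (-0.25 ± 0.11), Slc6a20b, a relative of the proline carrier Slc6a20a (0.39 ± 0.16), Slc7a14 and Slc38a3 (0.34 ± 0.14), all dim and the last under the background limit. None of the 27 brighter members had such a p, against 1.48% of all clusters with a mean over 4. For 24 of them the 95% interval excluded a 2-fold change, the share over all such clusters being 97.6%. The exceptions were Slc7a11, Slc36a2 and Slc38a4. For hPTH(1-34) against vehicle 22 of 27 intervals excluded it, against 92.7% of such clusters, and the other 5 were those of Slc7a5, Slc7a7, Slc7a11, Slc36a2 and Slc38a4. The median half-width over the 27 brighter members was 0.33, for intervals not adjusted for the number of clusters. The adjusted test with 3 arrays per group left larger changes uncalled as well. An example is Slc7a5 at 0.74 for hPTH(1-34) against vehicle (limma adjusted p = 0.276).

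Between hPTH(1-34) and bPTH(7-34) 0 of 61 members were called, against 109 clusters (0.463%), and 6 had an unadjusted p under 0.05 (9.84%, against 9.52% of all clusters). The 6 were Slc1a6, Slc6a2, Slc3a2, Slc6a3, Slc38a1 and Slc6a17. The groups were separate for 4 members (6.56%), against 11.1%. Without hPTH(1-34) array 1, Slc6a2 alone of the members passed (1.15, adjusted p = 0.00738), while 262 of 23521 clusters were called in all. The bPTH(7-34) and vehicle means of Slc6a2, 1.56 and 1.64, lay under the background limit. The comparison of the peptides shares its hPTH(1-34) arrays with the first one, so it is no second observation of the same genes.

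Some members differed more between array numbers than between groups. With the 3 arrays of one number averaged over the groups, the range of the 3 number means exceeded that of the group means for 16 of 27 brighter members (59.3%), against 50.2% of all clusters with a mean over 4. A range of number means of at least 0.5 was found for 8 of 27, against 8.91% of such clusters. They were Slc7a11 (1.61), Slc36a2 (1.23), Slc38a4 (1.19), Slc7a8 (0.88), Slc43a3 (0.80), Slc43a2 (0.73), Slc7a2 (0.70) and Slc7a7 (0.51), a limit chosen after the values were seen.

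**Figure D3:**
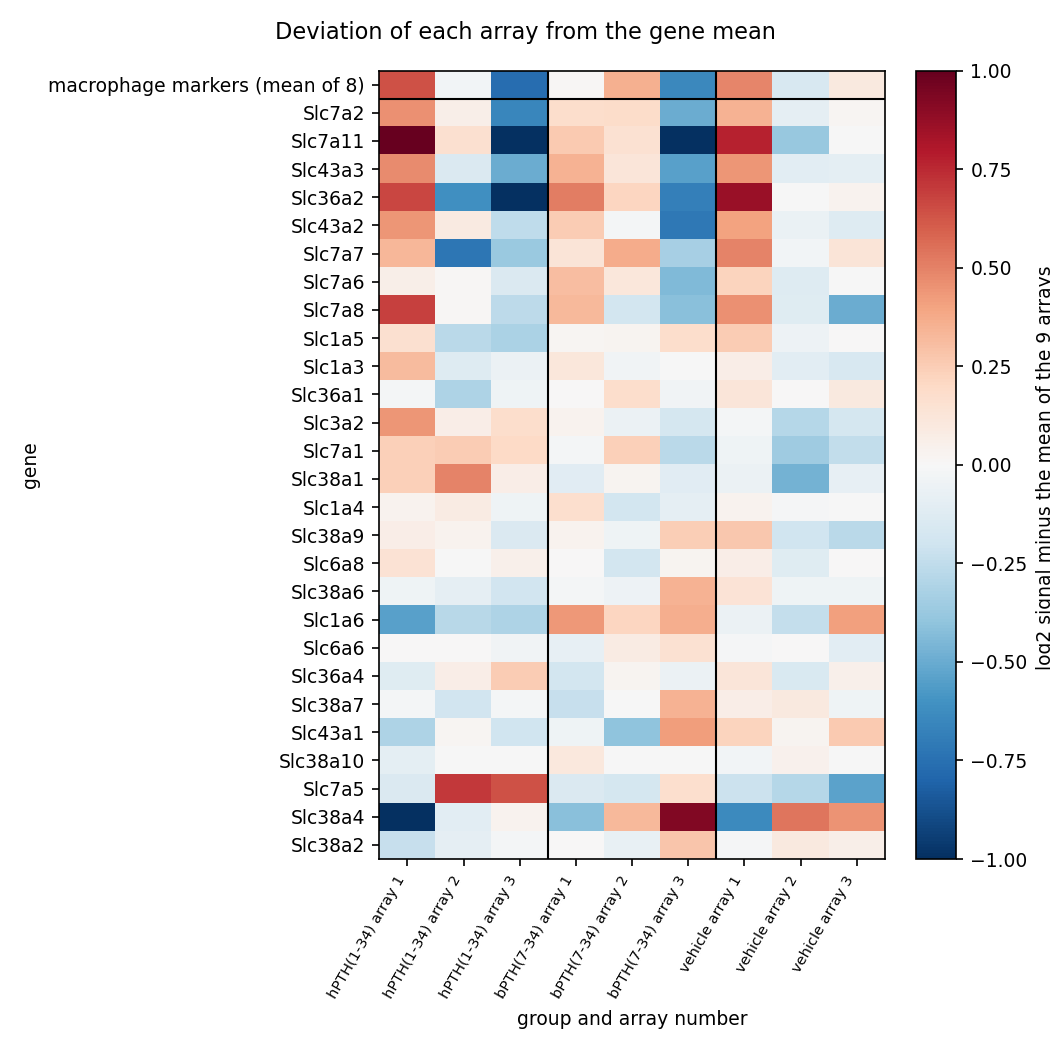
Deviation of each array from the mean of the 9 arrays (colour, log2) for the mean of 8 macrophage markers (top row) and 27 transporter genes, ordered by their correlation with the top row. Slc7a2, Slc7a11, Slc43a3, Slc36a2 and Slc43a2 follow the top row across groups. They are high in hPTH(1-34) array 1 and vehicle array 1 and low in array 3 of hPTH(1-34) and bPTH(7-34). Slc38a4 and Slc38a2 have the lowest r (-0.642 and -0.653), and neither passed (adjusted exact permutation p = 0.17 and 0.163).

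Macrophage and osteoclast markers differed between the same arrays. The mean of the 8 markers was 5.52, 4.85 and 4.12 with hPTH(1-34), 4.89, 5.24 and 4.24 with bPTH(7-34) and 5.37, 4.72 and 4.98 with vehicle, and all 8 lay above the background limit. Adgre1, which encodes the macrophage marker F4/80, had 6.37, 4.83 and 3.78 with hPTH(1-34), 5.33, 5.91 and 3.81 with bPTH(7-34) and 6.29, 4.82 and 5.39 with vehicle. Cd68, Lyz2, Itgam, Ptprc and Csf1r were likewise lowest in array 3 of hPTH(1-34) or bPTH(7-34), while the osteoclast genes Ctsk and Acp5 had ranges of number means of only 0.25 and 0.24. In bulk RNA, fewer cells of a type and less RNA per cell cannot be told apart.

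Over the 9 arrays the marker mean and the transporter signal were set against each other for the 27 brighter members, a comparison chosen after the data were seen. Pearson's r was 0.975 for Slc7a2 (Spearman's rho 0.950), 0.952 for Slc7a11 (0.850), 0.911 for Slc43a3 (0.917), 0.876 for Slc36a2 (0.917) and 0.825 for Slc43a2 (0.80). An r of at least 0.8 was thus found for 5 of 27 members (18.5%), against 4.11% of 7443 clusters with a mean over 4. In exact permutation tests over the 9 arrays, two-sided and adjusted over the 27 members, Pearson's r gave 0.000595, 0.00283, 0.0107, 0.0168 and 0.0279 for these 5 genes in that order. By rank Slc7a2, Slc7a11, Slc43a3 and Slc36a2 passed at 0.0335 or less (unadjusted exact p from 0.000353 to 0.00607), Slc43a2 did not (adjusted exact p = 0.0622), and Slc7a7 did (rho 0.845, adjusted exact p = 0.0335) with an r of 0.736. Arrays of one number tended to deviate together, so the 9 are not fully independent and these p values may be too small. The arrays were permuted without regard to group or number. The adjustment covers the 27 members but not the choice of this marker list among others. All 5 genes had already stood out by a wide range of number means, so the p values describe the relation and do not test it independently. Without the 2 arrays farthest from the median marker level, array 3 of hPTH(1-34) and of bPTH(7-34), r was 0.922, 0.876, 0.765, 0.695 and 0.669 for the same genes. With each group's mean removed r was 0.975, 0.974, 0.912, 0.908 and 0.854.

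**Figure D4:**
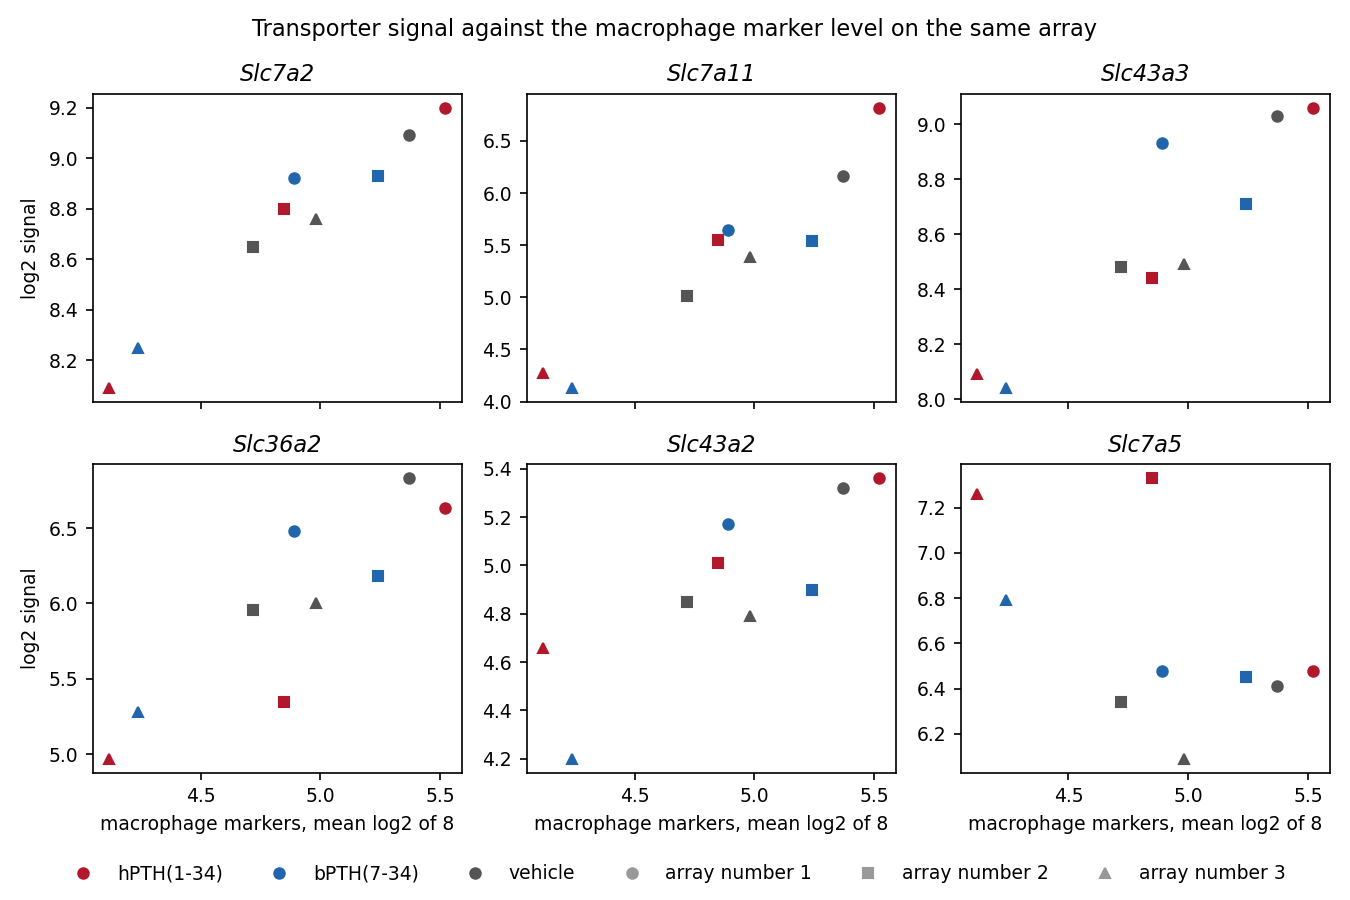
Log2 signal of 6 transporter genes against the mean log2 signal of 8 macrophage and osteoclast markers on the same array, with groups by colour and array numbers by symbol. The first 5 are higher on arrays with a higher marker level, with r from 0.975 for Slc7a2 to 0.825 for Slc43a2, and Slc7a5 does not (r = -0.552).

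Slc7a5, Slc3a2, Slc38a1 and Slc7a1, the 4 brighter members that lay higher with hPTH(1-34), had r of -0.552, 0.319, 0.201 and 0.288 with the marker level (adjusted exact permutation p from 0.287 to 0.747). With each group's mean removed r was -0.695, 0.723, 0.52 and 0.695. The part of the macrophage marker level in any difference between the groups was not tested. For bPTH(7-34) array 3, which had one of the lowest marker levels, Slc7a11 and Slc43a2 also had their lowest values of all 9 arrays, 4.13 and 4.20. Adipocyte markers, a list of 6, averaged 4.09 to 4.87 on the hPTH(1-34) arrays, 3.95 to 4.48 on the bPTH(7-34) arrays and 3.93 to 4.34 on the vehicle arrays. All 6 changes for hPTH(1-34) against vehicle were positive, 0 passed, and their part in the transporter values was not tested either.

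Amino acid genes outside the transporter families included few calls. Of 24 measured enzymes of amino acid synthesis and breakdown 1 passed against vehicle, Odc1, the first enzyme of polyamine synthesis from ornithine. It had 6.72, 7.38 and 7.81 with hPTH(1-34), 5.93, 5.59 and 5.69 with bPTH(7-34) and 5.91, 6.03 and 5.73 with vehicle, and it rose by 1.41 ± 0.24 against vehicle (limma adjusted p = 0.0470) and was higher by 1.57 ± 0.24 than with bPTH(7-34) (adjusted p = 0.0335). Each call held without hPTH(1-34) array 1 but was lost without any 1 of the other 8 arrays, with adjusted p from 0.0880 to 0.218 against vehicle and from 0.0636 to 0.154 against bPTH(7-34). Got1, the cytosolic aspartate aminotransferase, had 6.93, 7.56 and 7.45 with hPTH(1-34), 6.00, 6.25 and 5.43 with bPTH(7-34) and 6.25, 5.60 and 5.80 with vehicle, and missed the threshold at 1.43 ± 0.25 (adjusted p = 0.0565).

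None of 19 genes of the ATF4 amino acid response passed between hPTH(1-34) and vehicle, and their median change was 0.02, with 10 positive. Ddit4, a stress-induced inhibitor of mTORC1, had 4.88, 5.59 and 5.31 with hPTH(1-34), 4.33, 4.15 and 4.34 with bPTH(7-34) and 4.46, 4.36 and 4.32 with vehicle. It gave 0.88 ± 0.16 against vehicle (adjusted p = 0.0681) and was higher than with bPTH(7-34) by 0.99 ± 0.16 (adjusted p = 0.0423). That call was lost without any 1 array other than hPTH(1-34) array 1 (adjusted p from 0.0724 to 0.165). Gpt2, the mitochondrial alanine aminotransferase, gave 0.71 ± 0.16 against vehicle (adjusted p = 0.137). Asns, asparagine synthetase and a standard readout of the response, gave 0.15 ± 0.11, and Atf4 itself 0.23 ± 0.13.

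Of 18 measured cytosolic aminoacyl-tRNA synthetases, which charge tRNAs with amino acids, 0 passed, 16 changes were positive and the median was 0.13. All 18 had a mean over 4. Over all clusters with a mean over 4 the median was 0.01, and 3974 of 7449 changes were positive. Eprs, the bifunctional synthetase for glutamate and proline, had 7.96, 8.81 and 8.85 with hPTH(1-34), 7.39, 7.72 and 7.72 with bPTH(7-34) and 7.38, 7.61 and 7.72 with vehicle (0.97 ± 0.23, adjusted p = 0.155). Without hPTH(1-34) array 1 it passed (1.26, adjusted p = 0.00883). Hars, the histidine enzyme, gave 0.54 ± 0.13 (adjusted p = 0.181). Of 24 genes of mTORC1 amino acid sensing 0 passed and the median was -0.06. Sesn1, a leucine-binding inhibitor of that pathway, had 4.85, 4.65 and 4.70 with hPTH(1-34), 5.17, 5.19 and 5.59 with bPTH(7-34) and 5.40, 5.36 and 5.83 with vehicle, and the groups were separate at -0.80 ± 0.16 (adjusted p = 0.0836). Flcn, folliculin, gave 0.48 ± 0.24. Of 19 measured amino acid and peptide carriers outside the 7 families 0 passed, with a median of 0.02, and the mitochondrial glutamate carrier Slc25a22 gave 0.46 ± 0.13 (adjusted p = 0.235). The peptide carrier gene Slc15a2 had 1.63, 1.45 and 1.48 with hPTH(1-34), 1.69, 1.82 and 1.69 with bPTH(7-34) and 1.93, 1.69 and 1.73 with vehicle, so that the hPTH(1-34) arrays lay below the vehicle arrays at a level around the background limit (-0.26 ± 0.10, adjusted p = 0.440). For bPTH(7-34) against vehicle 0 genes of these lists passed.

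**Figure D5:**
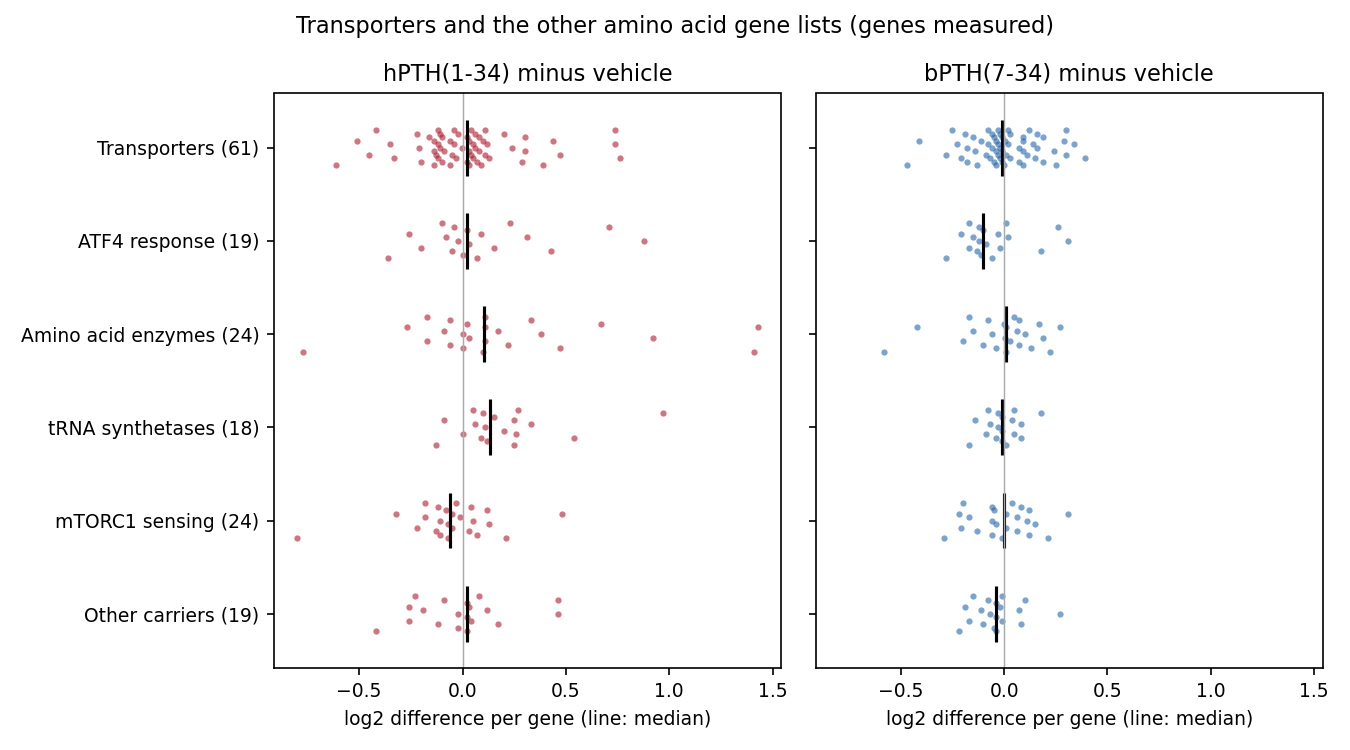
Log2 difference from vehicle of each measured gene (dots) and the median (line) for the 61 transporters and 5 other lists of amino acid genes, hPTH(1-34) on the left and bPTH(7-34) on the right. The transporters span -0.61 to 0.76 for hPTH(1-34) around a median of 0.02, and the 2 rightmost dots among the enzymes are Got1 and Odc1 at 1.43 and 1.41.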

How the data were processed

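RNA was measured on 9 Affymetrix Mouse Gene 2.0 ST arrays. The authors' deposited table gives log2 expression for each transcript cluster with 2 decimals, made by RMA in Affymetrix Expression Console per the submitters' processing notes, with no version stated. Of 41345 clusters the probe annotation gave 1 symbol for 23521, several for 1814 and none for 16010. RefSeq served to check names and gave the chromosomes and promoter sequences, and all 61 members had the same symbol there.

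The 9 arrays entered a single linear model with the treatment as its sole factor (lmFit and eBayes of limma 3.58.1, under R 4.3.3). Two-sided p values of each of 3 comparisons were adjusted by the Benjamini-Hochberg method over the 23521 clusters, and a threshold of 0.05 was used. Errors of changes are standard errors and intervals are 95% intervals of this fit. A gene with several clusters was read from the brightest. The number of arrays limits the precision. Members with an unadjusted p under 0.05, the 15 brightest and the 2 smallest p for hPTH(1-34) against vehicle of each role group were named with their values or changes. Genes of the other lists were named if past 0.05, or else as the 2 smallest p. Atf4, Asns and the members with a wide spread between arrays were named after their values were seen. The members and lists were chosen with earlier results of these data known.

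Alternatives were to add the array number as a block, to test all clusters or those averaging 5 or more, to normalise again by quantiles or by a median shift, to use a trended and robust eBayes, to keep 1 cluster per gene, to fit the 6 arrays of a comparison by themselves, and to drop each array in turn. On data simulated for hPTH(1-34) against vehicle with 200 of 23521 clusters changed, 20.3% of log2 changes of 0.5, 72.1% of 1 and 98.6% of 2 were recovered, and 5.47% of calls were false. The simulated noise was independent between arrays, unlike the shared deviations of arrays of one number. The changed clusters were drawn from all clusters, dim ones included. These rates may therefore not hold for the real arrays or for members with a wide spread.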

Additional observations from a re-analysis of the deposited data

How the results depend on the processing

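The count of called transporters was 0 in all 3 comparisons under each of 17 alternatives but one: without hPTH(1-34) replicate 1 it was 3 against vehicle and 1 between the peptides. The count of called clusters moved more. Against vehicle, where hPTH(1-34) gave 106, it was 16 with all clusters of the table tested, 182 with clusters of a mean log2 of at least 5, 0 with the 6 arrays alone, and 0 to 259 without one array. Between hPTH(1-34) and bPTH(7-34), where it was 109, these were 3, 211, 0 and 2 to 262. For bPTH(7-34) against vehicle it was 0 throughout in limma, with 780 clusters at an unadjusted p under 0.05 in the fit of all arrays. The cause was not tested, apart from the fewer or more clusters tested and the fewer arrays that the alternatives themselves set.

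With the array number as a replicate block the counts were 112, 0 and 116 clusters and 0 transporters in each comparison. For hPTH(1-34) against vehicle, 11 of 61 transporters rather than 7 had an unadjusted p under 0.05, with 11.2% of all clusters. Slc38a4 kept its change of -0.51 against vehicle with an SE of 0.13 (limma adjusted p = 0.193). Between the peptides it gave -0.67 ± 0.13 (limma adjusted p = 0.0949). In that fit Odc1 had an adjusted p of 0.0732 against vehicle and 0.0529 between the peptides, and Ddit4 0.0660 between the peptides, while Eprs passed in both (0.0460 and 0.0459) and Slc25a22 between the peptides (0.0458). In their deviations from the group means, same-numbered arrays correlated at 0.0696 to 0.601 and arrays of different numbers at -0.585 to 0.237, and 6 of 9 arrays were closest to an array of their own number. This is a hint from the data and not from the design. The numbers were still not taken to pair the samples, since the labels do not state it and 8 rather than all of the 9 pairs exceeded the 0.1 required of every pair. Of the 38 transporters and 10 other genes followed under the alternatives, 769, 791 and 760 of 791 values in each comparison kept their side of the threshold, 11, 0 and 9 newly passed, 11, 0 and 22 no longer did and 0 reversed. With 3 arrays per group, and with signals near the background limit for 34 members, small changes of these genes are not detectable.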
